A study of Mus musculus with 16 samples.

Results

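A group of 9 genes of the forkhead family of transcription factors, Foxa1, Foxa2, Foxb1, Foxc1, Foxc2, Foxd3, Foxf2, Foxl2 and Foxq1, was followed through the peak lists of a mouse embryonic stem cell (ESC) ChIP-seq study. They are 9 of the 22367 protein-coding genes of the GENCODE annotation of the NCBIM37 assembly (mm9), and 9 of its 43 forkhead genes. The peaks assigned to them are those that overlap a gene or lie within 5 kb of it: 12 of the 4992 peaks of total Jarid2, and 12 of the 4502 peaks of Jarid2 dimethylated at the lysine K116 (Jarid2-K116me2). The 9 genes were named with these lists in view, so their number with a peak is a description.

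Polycomb Repressive Complex 2 (PRC2) trimethylates lysine 27 of histone H3 (H3K27me3), a mark of silenced developmental genes in ESC. Jarid2 is a DNA-binding cofactor that brings PRC2 to CpG-rich promoters and is itself methylated by the complex. Forkhead factors bind DNA through a winged-helix domain, and many of them direct a lineage: Foxa1 and Foxa2 open chromatin in the endoderm, Foxc1 and Foxc2 act in mesoderm and blood vessels, Foxb1 acts in the developing brain, Foxf2 in mesenchyme, Foxl2 in the ovary and eyelid, and Foxq1 in the stomach and hair. Foxd3 differs from these in that it is expressed in ESC as well as in the neural crest.

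Jarid2 and Jarid2-K116me2 were each mapped in 1 sample of E14 ESC grown in serum with LIF, so nothing about these antibodies has a replicate check. H3K27me3 was mapped in 3 lines, with 2 samples of each line in each stage: Jarid2 knockout ESC (Jarid2 -/-, KO), and the same knockout cells carrying a BAC transgene of either Jarid2 (WT rescue) or Jarid2 with K116 changed to alanine (K116A rescue). All 3 lines thus lack endogenous Jarid2, and the BACs were integrated through a transposon. Each line was studied as ESC in serum with LIF and as embryoid bodies (EB) formed by hanging drop after 8 days without LIF, and EB are mixtures of cell types. Fewer cells with a mark and less of the mark per cell cannot be told apart in such samples. Peak lists do not show Jarid2 protein, so its loss in the KO line was not checked here.

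The H3K27me3 lists differed in size before any gene was considered. The 3 ESC replicates 1 held 1478 to 5183 broad peaks and the 3 ESC replicates 2 held 8579 to 9836, whereas EB lists held 6811 to 14125. The smallest list, that of WT rescue ESC replicate 1, covered 2.31 Mb, and the largest, that of KO EB replicate 2, covered 55.0 Mb. The peak lists hold no read depths, and the read numbers that the study lists for its libraries were not used here. What part list size plays in each H3K27me3 difference was not tested, and values without the 3 ESC replicates 1 are given beside the results they change.

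All 9 genes carried a peak of total Jarid2, and none of them lacked one, Foxd3 included. Across protein-coding genes, 18.1% had a Jarid2 peak within 5 kb. All 9 also carried a Jarid2-K116me2 peak, against 16% of protein-coding genes, and at all 9 a Jarid2-K116me2 peak overlapped a Jarid2 peak, against 15.8%. The highest score at every one of the 9 genes, in both lists, was 3100, the value at which the scores of the MACS peak caller pile up. A Jarid2 score of at least 3100 was reached near 3.61% of protein-coding genes, and a Jarid2-K116me2 score of at least 3100 near 4.24%. Because the scores stop there, they cannot rank the 9 genes, and the width of the peaks was used instead.

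The Jarid2 domains were wide and lay across the transcription start site (TSS) of all 9 genes. Foxa1 had the widest single peak, 18301 bp running from -6434 to +11866 bp relative to its TSS. Foxb1 followed with 14715 bp, most of it upstream of the gene, then Foxa2 with 14306 bp, Foxf2 with 14297 bp and Foxc1 with 13168 bp. Foxd3 had a peak of 10381 bp, Foxc2 one of 9573 bp, and Foxl2 one of 8911 bp. Foxq1 had the narrowest peak, 5025 bp, and was the only one of the 9 whose Jarid2 peak did not contain the whole gene.

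Summed over the peaks of a gene, the 9 genes had a median of 14297 bp of Jarid2 peak. The median was 2380 bp over the 4052 genes with a Jarid2 peak, and 6095.5 bp over the 772 genes with scores of at least 3100 in both lists. Foxa1, at 18301 bp, exceeded 91.1% of those 772 genes, whereas Foxq1 exceeded 38.3% of them.

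**Figure D1:**
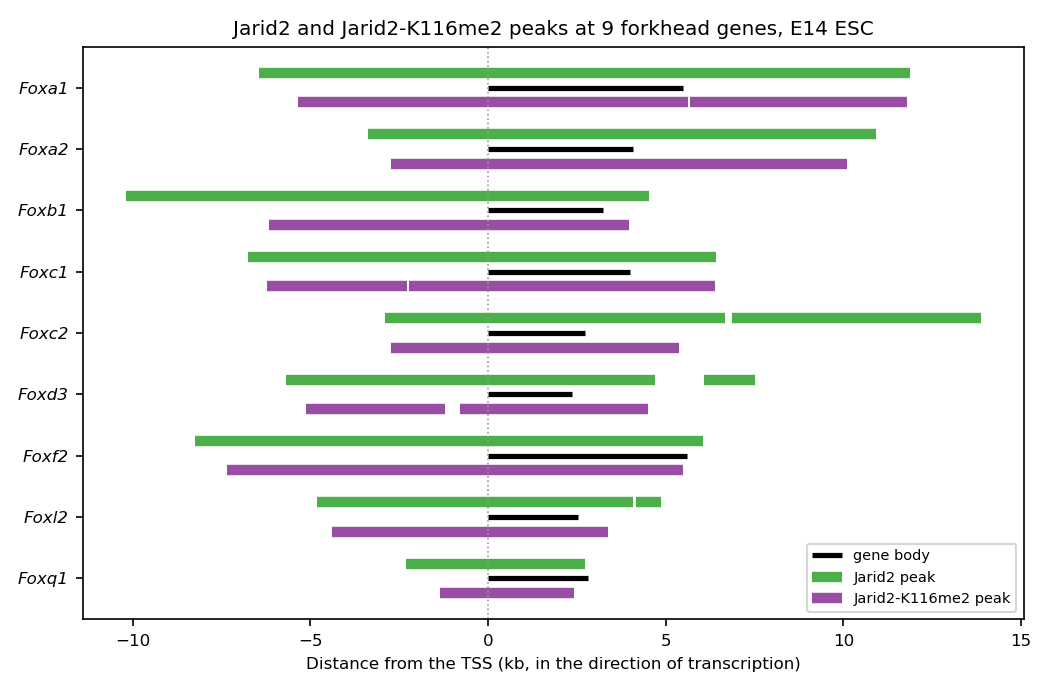
Extent of each Jarid2 peak (green) and Jarid2-K116me2 peak (purple) within 5 kb of 9 forkhead genes in E14 ESC, in kb from the TSS in the direction of transcription, with the gene body in black. One sample was mapped per antibody. A peak of each antibody spans the TSS of all 9 genes, and the Jarid2-K116me2 peaks of Foxa1, Foxc1 and Foxd3 are broken in 2 where Jarid2 has 1 peak.

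Jarid2-K116me2 filled most of each Jarid2 domain. Counting every overlapping Jarid2-K116me2 peak, it covered a median of 89.7% of the Jarid2 base pairs of a gene, from 74.9% at Foxq1 to 95.2% at Foxc1. Counted only within 5 kb of the gene, as for all genes, its peaks spanned a median of 81.0% as many base pairs as Jarid2, beside 83.2% over the 772 genes with scores of at least 3100 in both lists. The limit of 5 kb mattered at Foxc2 and Foxb1. Foxc2 had a second Jarid2 peak of 7019 bp, also scored 3100, that began 6859 bp after the TSS and overlapped the neighbouring forkhead gene Foxl1, a pseudogene in this annotation. The Jarid2-K116me2 peak over it, 5427 bp wide and scored 3100, started 5460 bp from Foxc2 and so fell just outside the limit. At Foxb1 a second Jarid2-K116me2 peak, 6460 bp from the gene, lay inside its single Jarid2 peak. Only the small Jarid2 peaks downstream of Foxd3 (1456 bp, score 132.81) and Foxl2 (683 bp, score 65.0) overlapped no Jarid2-K116me2 peak.

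Within 5 kb, the Jarid2-K116me2 domain of 3 genes was broken in 2 inside a single Jarid2 peak. The break was 43 bp at Foxa1, 48 bp at Foxc1 and 440 bp at Foxd3. At Foxd3 it lay between -1217 and -778 bp from the TSS, and the piece upstream of it, with a score of 1787.9, was the only one of the 6 pieces below 3100. Foxa1 and Foxc1 thereby had more Jarid2-K116me2 than Jarid2 peaks, which held for 17.6% of the genes with scores of at least 3100 in both lists. The short breaks are printed because they show how little sequence parts the pieces. That of Foxa1 (mm9 chr12:58641432-58641474, minus strand) is intergenic, past the end of the gene, and that of Foxc1 (chr13:31896230-31896277, plus strand) is intergenic, upstream of the gene. Capitals mark CpG dinucleotides.
Foxa1 break: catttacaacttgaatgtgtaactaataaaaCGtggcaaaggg
Foxc1 break: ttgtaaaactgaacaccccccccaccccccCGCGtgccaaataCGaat
The Foxa1 break held 1 CpG and the Foxc1 break held 3. One sample per antibody cannot show whether such breaks recur.

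Foxq1, Foxf2 and Foxc1 lie side by side on chromosome 13. They are 64845 bp and 175242 bp apart, with no protein-coding gene between them, and each had its own Jarid2 domain.

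The remaining 34 forkhead genes fell into 2 lists. Of 12 broadly expressed forkhead genes, 4 had a Jarid2 peak (Foxj2, Foxo1, Foxo3 and Foxp4), all with a Jarid2-K116me2 peak and none with a score of 3100. Their highest Jarid2 scores lay between 145.11 and 612.43. Of the other 22, 13 had a Jarid2 peak. Of these, 10 reached 3100, among them Foxb2, Foxd1, Foxd2, Foxe1, Foxf1a and Foxp2. Foxo6 had a Jarid2 score of 2827.46, Foxi2 one of 589.22, and Foxj1 one of 219.65 with no Jarid2-K116me2 peak. Among 8 genes active in ESC, which include Pou5f1, Nanog and Sox2 of the pluripotency network, only Esrrb had peaks, with scores of 2868.23 for Jarid2 and 3072.68 for Jarid2-K116me2. Foxd3, also expressed in ESC, was at 3100 in both.

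The promoters of the 9 genes were rich in CpG. Within 500 bp of the TSS the ratio of observed to expected CpG had a median of 0.856, from 0.571 at Foxa2 to 0.993 at Foxc2. The median was 0.671 over the 4052 genes with a Jarid2 peak, 0.719 over the 807 with a Jarid2 score of at least 3100, and 0.474 over the 18315 genes without a Jarid2 peak. Among the remaining forkhead genes the median was 0.785 for the 17 with a Jarid2 peak and 0.394 for the 17 without one. The 250 bp before the TSS are printed for the extremes in CpG count, Foxc1 (chr13:31898265-31898514, plus strand) and Foxa2 (chr2:147872706-147872955, minus strand, before the outermost of 4 annotated starts). Those of Foxa1 (chr12:58647109-58647358, minus strand) and Foxd3 (chr4:99322740-99322989, plus strand) are printed because the H3K27me3 results below turn on them. All are read from the mm9 assembly in the direction of transcription, outside annotated exons, with CpG in capitals.
Foxc1 upstream: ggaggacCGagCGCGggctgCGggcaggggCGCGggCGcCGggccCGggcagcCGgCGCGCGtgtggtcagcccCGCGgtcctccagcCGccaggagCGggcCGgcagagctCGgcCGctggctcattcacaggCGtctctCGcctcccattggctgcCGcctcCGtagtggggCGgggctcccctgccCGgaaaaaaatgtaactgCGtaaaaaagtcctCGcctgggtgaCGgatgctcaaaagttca
Foxa2 upstream: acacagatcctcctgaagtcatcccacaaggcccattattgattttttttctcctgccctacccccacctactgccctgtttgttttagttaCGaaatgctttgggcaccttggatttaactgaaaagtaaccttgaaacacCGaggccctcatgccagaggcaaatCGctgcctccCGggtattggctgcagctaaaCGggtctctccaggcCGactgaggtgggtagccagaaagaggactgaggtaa
Foxa1 upstream: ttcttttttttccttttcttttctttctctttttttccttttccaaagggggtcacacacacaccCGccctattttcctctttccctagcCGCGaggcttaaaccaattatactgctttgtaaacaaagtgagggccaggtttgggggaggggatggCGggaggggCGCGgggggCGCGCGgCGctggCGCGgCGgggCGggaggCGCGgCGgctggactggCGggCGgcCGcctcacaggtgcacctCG
Foxd3 upstream: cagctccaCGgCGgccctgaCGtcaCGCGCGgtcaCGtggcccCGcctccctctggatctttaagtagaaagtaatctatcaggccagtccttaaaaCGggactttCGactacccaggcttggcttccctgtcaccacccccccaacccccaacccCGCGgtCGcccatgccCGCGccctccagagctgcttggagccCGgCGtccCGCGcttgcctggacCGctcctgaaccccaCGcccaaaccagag
These windows held 29 CpG at Foxc1, 6 at Foxa2, 21 at Foxa1 and 21 at Foxd3. Foxa2 had few CpG in the 250 bp before the outermost of its 4 annotated starts, and the other starts were not examined. Its Jarid2 peak of 14306 bp, scored 3100, held 482 CpG.

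H3K27me3 broad peaks lay within 5 kb of the TSS of 8 of the 9 genes in all 12 libraries, and of Foxq1 in 11 of 12. A peak in all 12 libraries was found at 2.87% of protein-coding genes, and one in at least 11 at 7.25%. The exception was WT rescue ESC replicate 1, the smallest list. The mark was present in the line labelled Jarid2 KO: in its larger ESC library, replicate 2, between 79.3% (Foxq1) and 100% of the 10 kb window around each TSS was covered. Of the remaining forkhead genes, 8 of the 22 less broadly expressed genes and none of the 12 broadly expressed ones had a peak in all 12 libraries.

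The share of the window covered passed the limma test at none of the 9 genes in any of the 10 comparisons made. The test pools each gene's spread over ESC and EB groups, so a failure does not show that EB libraries were alike. At Foxa1 and Foxq1 the EB values of K116A and WT rescue lay further apart than their replicates, as given below. In limma fits over 6747 genes with Benjamini-Hochberg adjustment, 0 of the 9 passed an adjusted p of 0.05, and 1 (Foxc2) had an unadjusted p under 0.05, in EB against ESC averaged over lines. In that comparison 22.2% of the genes tested passed. Without WT rescue ESC replicate 2, which leaves the smallest list alone in its group, 7 of the 9 passed there, and up to 3 of the 9 passed in 5 of the other comparisons. Within a line, EB against ESC passed at 0.548% of genes in WT rescue, 21.1% in KO and 3.29% in K116A rescue. Between lines in ESC, 0% passed for KO and for K116A rescue against WT rescue, with 19 and 33 genes of 6747 at an unadjusted p under 0.05. In EB, 14.9% passed for KO and 0.949% for K116A rescue against WT rescue. The dependence of the line difference on stage passed at 3.94% of genes for KO and 0.148% for K116A rescue. The median of the 9 genes in EB minus ESC was 19.4 percentage points, beside 7.09 points over all genes tested. These medians are not like for like, because the genes tested had a median covered share of only 0% to 27.1% by library. Centring each library on its median over the 642 genes with a peak in all 12 libraries lowered the differences. Foxd3 then fell from 30.7 to 11.5 points and Foxc2 from 24.9 to 5.67 points. Whether the 9 differ from genes marked in all libraries was not tested. Among the 19 remaining forkhead genes that could be tested, Foxd4 (32.8 points, adjusted p = 0.0458) and Foxn4 (25.5 points, adjusted p = 0.00302) passed in that comparison.

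**Figure D2:**
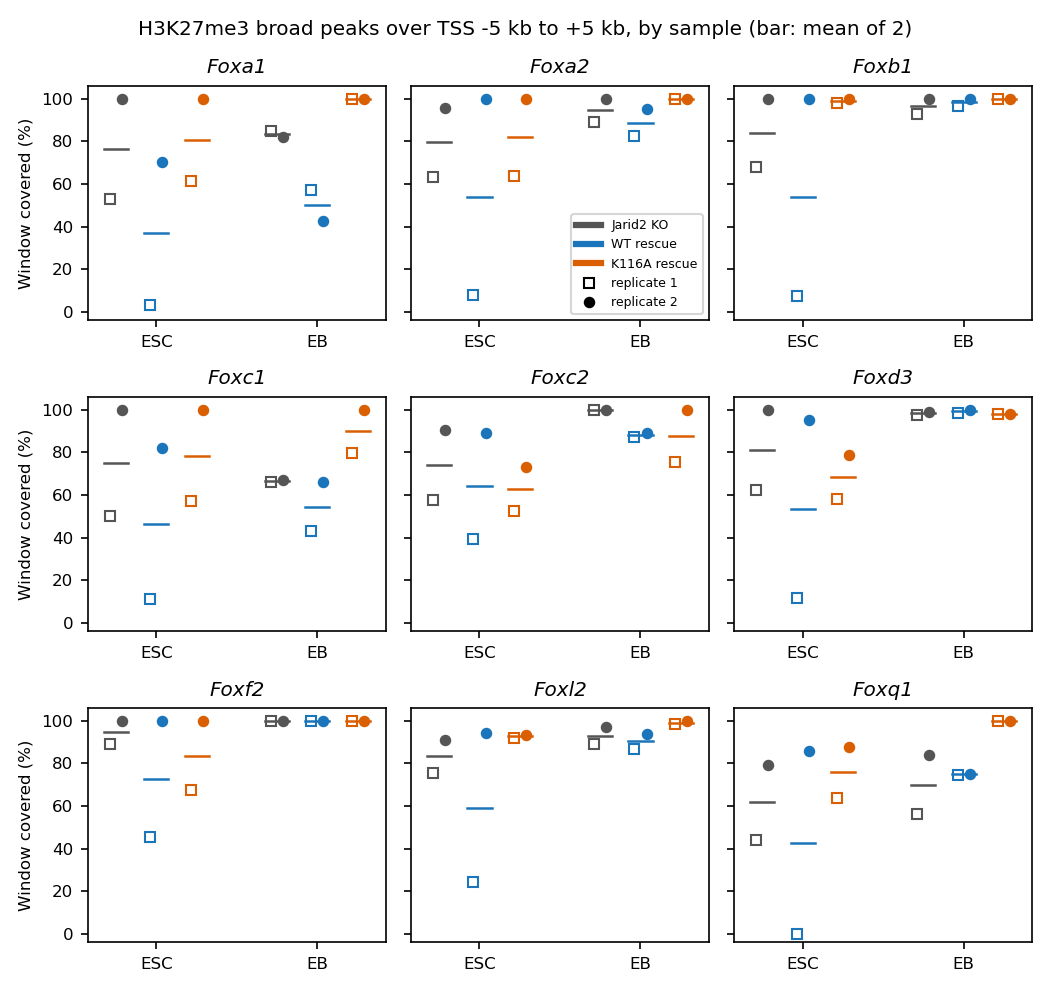
Share of the window from 5 kb before to 5 kb after the TSS covered by H3K27me3 broad peaks (vertical axis, percent) at 9 forkhead genes in ESC and EB of the 3 lines. Squares are replicates 1, circles replicates 2 and bars the mean of 2. The WT rescue ESC replicate 1 sits lowest in each panel, and Foxd3 lies at 97.7% or more in all 6 EB libraries.

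Foxd3 is described by stage first. In ESC, 11.8% to 100% of its window was covered, with a median of 70.6%, and in EB 97.7% to 100%, with a median of 98.2%. The ranges overlap at the top, because KO ESC replicate 2 was fully covered. The mean difference was 30.7 ± 14.2 points (SE, limma adjusted p = 0.158, n = 6 EB and 6 ESC libraries), and an exact two-sided permutation test of 6 against 6 gave p = 0.0152. Without WT rescue ESC replicate 2 the difference was 44.6 ± 7.70 points (adjusted p = 0.0107). With replicates 2 alone, 1 library per line in each stage, it was 7.55 ± 5.44 points (SE, limma adjusted p = 0.449).

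The scores of the Foxd3 peaks did not overlap between stages. Averaged over the window, with bases outside peaks at 0, the score in ESC was 34.3 and 105.48 in KO, 5.57 and 72.6 in WT rescue, and 26.4 and 63.3 in K116A rescue. In EB it was 177.4 and 265.3 in KO, 161.4 and 109.13 in WT rescue, and 119.99 and 184.5 in K116A rescue. All 6 EB values lay above all 6 ESC values, as at 5.59% of the genes tested. The exact two-sided permutation test, which ignored line, gave p = 0.00216, the smallest that 6 against 6 allows. Any gene so separated has this p, so it adds nothing to the separation. The 6 EB values also lay above the 3 ESC replicates 2 alone, again at 5.59% of genes. The nearest neighbours were KO ESC replicate 2 (105.48) and WT rescue EB replicate 2 (109.13). Foxd3 was 1 of the 9 with this separation and the other 8 overlapped, a share near that of all genes tested, so the count is not a result about the 9.

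MACS2 scores grow with the reads of a library, so the Foxd3 peaks were also ranked within each library, a choice made, like that of the score itself, after the data had been seen. The highest Foxd3 peak outscored 6.09% to 90.8% of the peaks of its library in ESC and 92.8% to 99.7% in EB, without overlap, as at 6.76% of the genes tested. This rank is not free of list size. The lowest score listed was 43.9 among 1478 peaks in WT rescue ESC replicate 1, and 28.7 among 14125 in KO EB replicate 2. On the log2 scale of the mean score plus 10, the EB minus ESC difference was 1.76 ± 0.47 (SE, limma adjusted p = 0.0347). Centring on each library's median over the 642 genes with a peak in all 12 libraries put the median difference of genes tested at -0.47. So centred, the Foxd3 difference was 0.93 ± 0.18 (SE, limma adjusted p = 0.00665). The same centring of the covered share, the main measure, gave 11.5 ± 8.16 points (SE, limma adjusted p = 0.326), which did not pass. Not centred and without the 3 ESC replicates 1, the Foxd3 log2 difference was 0.96, beside 1.76 with all 12 libraries. ESC is then 1 library per line, so the spread comes from the EB libraries alone. Over 27 alternatives the adjusted p of the Foxd3 difference, by covered share or by score, ran from 0.00421 to 0.643 and was under 0.05 in 6. The lowest came from covered share without the 3 ESC replicates 1, where the spread is that of EB libraries at or near full coverage, and it says nothing about how ESC libraries vary. Whether the score or the covered share is the better measure was not tested.

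**Figure D3:**
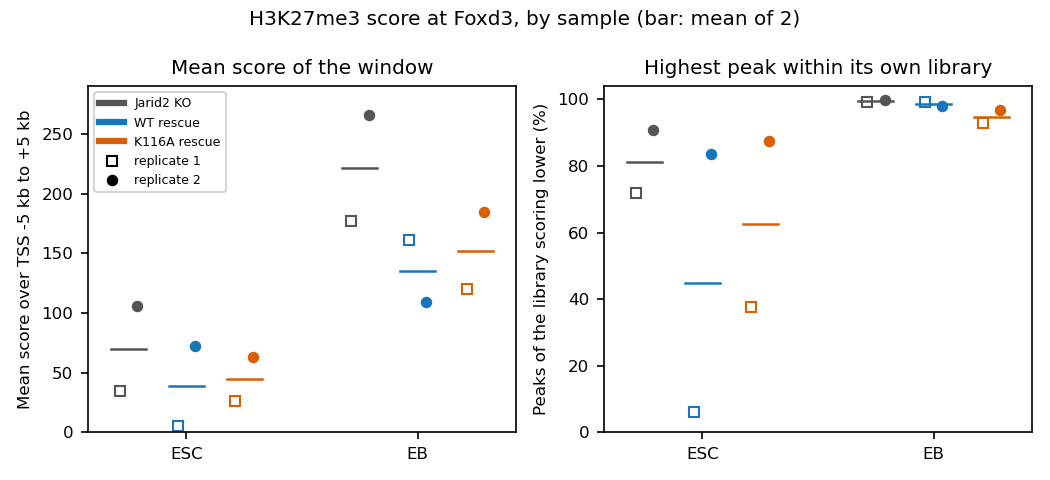
H3K27me3 score at Foxd3 by library: mean score over the 10 kb window (left, MACS2 score) and percent of the library's peaks that score below the highest Foxd3 peak (right). Squares are replicates 1, circles replicates 2, bars the mean of 2. In both panels the 6 EB libraries lie above the 6 ESC libraries.

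The edges of the Foxd3 domain were read from the same peaks. Its upstream edge stood 8006 to 8829 bp before the TSS in the 6 EB libraries, beyond the edge of the Jarid2 peak at 5676 bp. In 5 ESC libraries it stood 4967 to 5371 bp before the TSS, and in WT rescue ESC replicate 1 the single peak began 1927 bp after the TSS. The edges of the 2 stages did not overlap, as at 10.9% of the 642 genes with a peak in all 12 libraries. The widest peak measured 12816 to 15632 bp in EB and 1178 to 11351 bp in ESC, also without overlap, as at 8.72% of those genes. On each measure 1 of the 9 genes separated, Foxd3, a share near that of the 642 genes, so neither count is a result about the 9. Edges and widths were examined after the values had been seen, and carry no test.

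**Figure D4:**
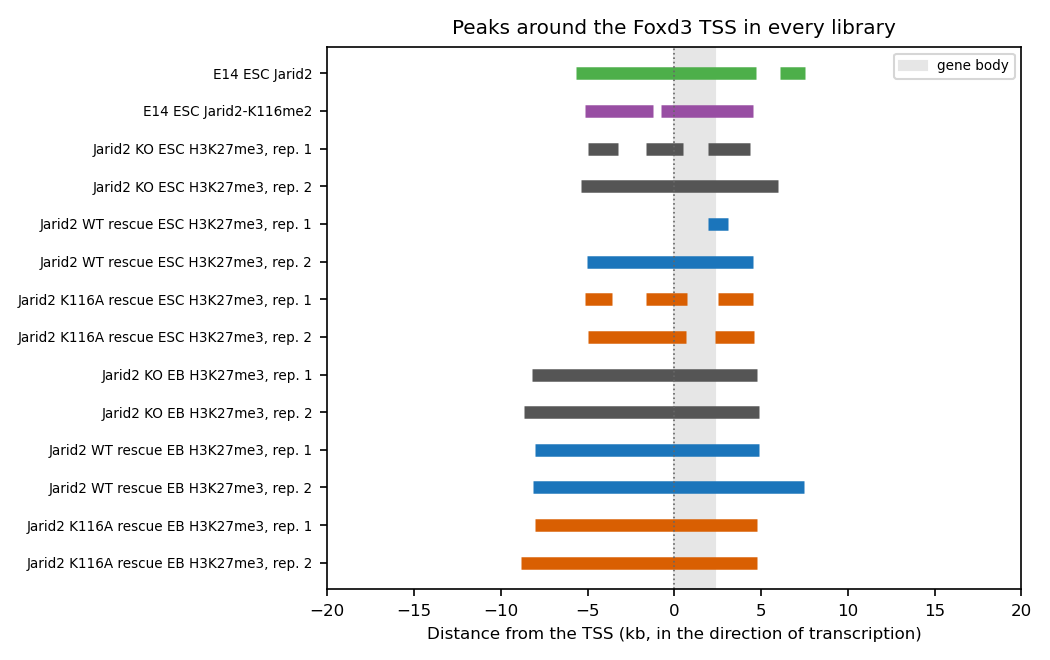
Peaks of every library within 20 kb of the Foxd3 TSS, in kb in the direction of transcription (gene body shaded). Each row is a library. In the 6 EB libraries H3K27me3 forms 1 peak that begins about 8 kb before the TSS, and in ESC it ends nearer or is broken.

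Of the remaining 8 genes, Foxc2 came nearest to a difference between stages. In ESC 39.4% to 90.5% of its window was covered (median 65.3%), and in EB 75.5% to 100% (median 94.4%). The difference was 24.9 ± 10.3 points (SE, limma adjusted p = 0.123), and the exact permutation test gave p = 0.0325. Without the 3 ESC replicates 1 the difference was 7.67 points (limma adjusted p = 0.428), with the spread estimated from EB alone. Its adjusted p ran from 0.0175 to 0.613 over 27 alternatives and was under 0.05 in 4. Foxf2 was fully covered in all 6 EB libraries and in the 3 ESC replicates 2. Foxc1 differed least, by 3.58 points. In all, 18 exact tests were made, 2 for each gene, and the p-values given here, those of Foxd3 included, are not adjusted.

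The lines were compared within EB, the question being whether cells whose Jarid2 cannot be methylated at K116 differ from cells with wild-type Jarid2. Foxa1 had the widest spread. Its window was covered to 57.4% and 42.6% in WT rescue EB, to 85.1% and 82.2% in KO EB, and to 100% in both K116A rescue EB libraries. The 3 lines did not overlap, and the share of all genes tested with such a separation was not computed. K116A rescue exceeded WT rescue by 50.03 ± 24.1 points (SE, limma adjusted p = 0.599), and KO exceeded it by 33.7 ± 24.1 points (adjusted p = 0.467). Neither passed, and without the 3 ESC replicates 1 they were at a limma adjusted p of 0.0481 and 0.0490, the lowest of 26 alternatives that reached 1.0, with the spread estimated from EB alone. A comparison of 2 libraries against 2 cannot go below an exact p of 0.33. The order of the lines at Foxa1 was not particular to EB. In ESC, K116A rescue exceeded WT rescue by 43.9 ± 24.1 points (SE) and KO exceeded it by 39.5 ± 24.1 points. Those ESC values include the smallest list, where Foxa1 was covered to 3.39%. In the ESC replicates 2 coverage was 100% in KO, 70.4% in WT rescue and 100% in K116A rescue.

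The H3K27me3 domain of Foxa1 was interrupted around the TSS. The TSS was uncovered in 8 of the 12 libraries. In the 7 of these with a peak on each side, coverage stopped between -228 and -642 bp from the TSS and resumed between +1135 and +1474 bp, so the break took in most or all of the CpG-rich sequence printed above. It was present in both WT rescue EB and both KO EB libraries. In the K116A rescue EB libraries a single peak of 27857 and of 30830 bp ran across the TSS, from 13566 and 15922 bp upstream, as did single peaks of 20245 bp in KO ESC replicate 2 and 23410 bp in K116A rescue ESC replicate 2. Jarid2 itself had a single peak over this stretch.

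**Figure D5:**
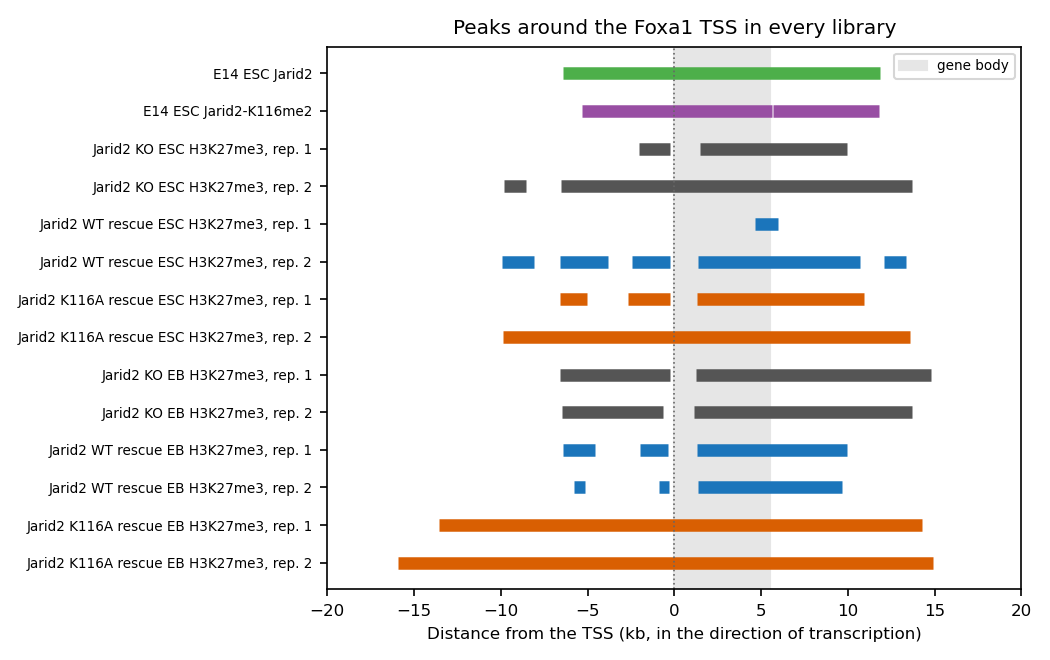
Peaks of every library within 20 kb of the Foxa1 TSS, in kb in the direction of transcription (gene body shaded). Each row is a library. H3K27me3 is broken around the TSS in both WT rescue and both KO EB libraries and unbroken in both K116A rescue EB libraries.

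Foxc1 shared this feature in part. Its TSS was uncovered in both WT rescue EB libraries, where coverage stopped at -467 and -397 bp from it, and covered in both KO and both K116A rescue EB libraries. Foxa1 and Foxc1 were thus the 2 of 9 genes with a TSS covered in both K116A rescue EB and in neither WT rescue EB library. This held for 3.85% of the genes tested, and Foxc1 was the 1 of 9 with the same for KO, against 4.88%. Most of the 6747 genes tested could not show either pattern. Their TSS was covered at 1507 and 2010 genes in the K116A rescue EB libraries, and at 1623 and 2154 in KO EB. Of the 9 genes, 9 were covered in each K116A rescue EB library and 8 in each KO EB library. Shares among genes with a covered TSS were not computed, so these counts are not a result about the 9. Foxc1 was covered to 43.0% and 66.1% in WT rescue EB and to 79.7% and 100% in K116A rescue EB, a difference of 35.3 ± 26.7 points (SE, limma adjusted p = 0.877). Foxq1 was covered to 74.7% and 75.1% in WT rescue EB and to 99.95% and 100% in K116A rescue EB, a difference of 25.1 ± 26.2 points (SE, limma adjusted p = 0.999). The Foxq1 difference vanished in a window of 2 kb on each side of the TSS, which both lines covered fully in EB. Both SE rest on a spread shared with the ESC groups. At Foxq1 the replicate SD was 0.262 points in WT rescue EB and 0.035 in K116A rescue EB, against 60.6 in WT rescue ESC. These adjusted p-values therefore do not measure the EB spread alone.

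None of the 9 genes passed the limma test between K116A rescue and WT rescue EB, where Foxa1 had the lowest adjusted p of them, and the counts of genes whose libraries do not overlap are a description. Both K116A rescue libraries exceeded both WT rescue libraries in covered share at 5 of 9 (Foxa1, Foxa2, Foxc1, Foxl2 and Foxq1), beside 32.7% of the genes tested. By mean score it was 8 of 9, all but Foxd3, beside 39.8%. For KO over WT rescue, covered share separated at 2 of 9 (Foxa1 and Foxc2) beside 53.5% of genes, and mean score at 7 of 9 beside 59.2%. The K116A rescue EB lists covered 23.2 and 37.2 Mb and the WT rescue EB lists 19.65 and 22.5 Mb, and the part of list size in these counts was not tested. The genes tested needed a peak in only 2 of 12 libraries, and whether the 9 differ from them in these counts was not tested.

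Of the 5 protein-coding genes outside the family whose coverage was closest to the median profile of the 9 genes, Celf4 came first, with a mean absolute difference of 4.32 percentage points over 12 libraries, and Lhx8 came last, with 4.51 points. All 12 libraries enter this likeness, the small lists included.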

How the data were processed

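Chromatin immunoprecipitation followed by sequencing was analysed from 14 peak lists of 16 samples. The 2 input samples, which have no list of their own, were not used here. Per the submitters' processing notes, reads were aligned to mm9 with Bowtie2 2.1.0 and peaks called with MACS 1.4.2 and MACS2 2.0.10, and HOMER 3.17 is named as well. The deposited lists give a position and the score that the authors' peak caller wrote, which is not normalized for depth. Replicates were called separately. The lists carry no counts, so no interval for counting error can be given. The read numbers that the study lists for its libraries were not used here.

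Peaks were joined to GENCODE genes of NCBIM37 (0 of 103531 peaks ran past a chromosome end). The 9 genes and all lists were chosen with earlier results of these data known. All 9 are named. Remaining forkhead genes are counted, and those with a peak named, except that some names are not reported here. The 5 most similar genes have the smallest mean absolute difference from the median profile. For H3K27me3, the covered percentage of the window 5 kb on each side of the outermost TSS was fitted with limma 3.58.1 (R 4.3.3) as 6 group means over 12 libraries, for genes with a peak in at least 2 libraries, with 10 contrasts and calls at a Benjamini-Hochberg adjusted p of 0.05. The plan had named fold enrichment, which the lists used here do not give, so the covered share, planned as an alternative, became the main measure. The mean score over the window (log2 after adding 10) and the edges of peaks were added after the data had been seen. Exact two-sided permutation tests used SciPy 1.17.1 and shuffled all 12 libraries without regard to line. The CpG ratio is the CpG count times the length divided by the product of the C and G counts. Scripts were tested on simulated data. The labels only number the replicates, and the study describes them as biological. With 2 per group, p-values measure the spread between these samples. The limma spread of a gene is shared by all 6 groups, so comparisons within EB also carry the differences between ESC replicates. The study's methods treat replicates 2 as the better samples. Replicate numbers are shared by the groups but were not used as pairs in the reported fit, since deviations of same-numbered samples did not correlate above 0.1 in every pair of groups.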

Additional observations from a re-analysis of the deposited data

How the results depend on the processing

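The 9 genes kept their Jarid2 and Jarid2-K116me2 peaks at distances of 0, 1 and 10 kb, with scores of at least 200, when measured from the TSS, and with 50% mutual overlap. Since the 9 genes were named with these lists in view, that stability was largely fixed in advance. In all, 280 of the recomputed values that answer a comparison stayed within 1.5 times the reported one and 18 moved. Most of these values are numbers of the 9 genes that passed, reported as 0, for which staying within 1.5 times only means staying at 0. The 280 are therefore no measure of robustness. Each of the 18 is a number of the 9 genes that passed, reported as 0. For EB against ESC averaged over lines, 1 passed with the replicate block (Foxc2, 24.9 points, adjusted p = 0.0341), 2 with 20 kb on each side of the TSS (Foxc2 and Foxd3), 1 with the log2 mean score (Foxd3), 1 with that score centred (Foxd3), 3 with that score and the replicate block (Foxc2, Foxd3 and Foxf2), and 1 without the 3 ESC replicates 1 (Foxd3). Without the 3 ESC replicates 1, 1 also passed for EB against ESC in K116A rescue (Foxd3), for K116A rescue against WT rescue in ESC (Foxd3) and its dependence on stage (Foxd3), for KO against WT rescue in EB (Foxa1), and for K116A rescue against WT rescue in EB, by covered share and by log2 mean score (Foxa1). ESC is 1 library per line in these fits and is assumed to vary like the EB groups, which for Foxd3 are at or near full coverage, so the Foxd3 calls say nothing about stability.

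Leaving out 1 library at a time, 0 to 7 of the 9 passed for the average of lines, 0 to 3 for EB against ESC in WT rescue, 0 to 2 for KO and for K116A rescue against WT rescue in ESC, 0 to 2 for the dependence of the KO difference on stage and 0 to 1 for that of K116A rescue. Every one of these calls came without WT rescue ESC replicate 2, which leaves the smallest list alone in its group. The replicate block changed no other call of the 9 genes. Deviations of same-numbered samples correlated at 0.632 to 0.699 between ESC groups, and at -0.0094 in the lowest pair of groups. Of the recomputed differences of single genes named in the text, 145 kept their call, 13 passed where the reported value had not, and 0 changed sign. Those that kept their call include the Foxq1 difference between K116A and WT rescue EB, which vanished with 2 kb on each side of the TSS. The median CpG ratio was 0.858 within 250 bp. Fold enrichment with a pseudocount and a q-value threshold could not be run on these lists. With no filter on genes, most genes had no spread at all, and that fit is unreliable. Alternatives by score, 20 kb window and omission of the 3 libraries were chosen after seeing the data.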
